A study of Danio rerio with 3 samples.

Results

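Genes for histone and DNA modifying enzymes, with the bromodomain readers and the ATP-dependent remodelling proteins that work beside them, were examined in zebrafish chondrocytes. They were taken by symbol (hdac, sirt, kat, ep300, crebbp, kdm, kmt2, setd, ezh, eed, suz12, dot1l, ehmt, prmt, dnmt, tet, brd, smarc and chd names). This gave 130 genes of the 14417 in the count table. All samples were of 1 group, cartilage of the cranial base in the occipital region, captured by laser, with the perichondrial cells avoided, from sections of wild-type larvae at 6 dpf, and there was no other genotype, treatment or age. The 3 independent samples are called libraries 1, 3 and 6, and the number of larvae behind each is not given in the sources used here. The captured RNA was amplified for 1 round. Because it was counted per gene over all captured cells of a sample, fewer cells of a type and less RNA per cell cannot be told apart.

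In chromatin, DNA is wound on histone proteins whose tails carry acetyl and methyl groups. Acetyltransferases and methyltransferases place these groups, deacetylases and demethylases remove them, bromodomain proteins bind acetylated lysines, and SWI/SNF and CHD proteins use ATP to move nucleosomes. DNA methylation is placed by Dnmt enzymes and oxidized by Tet enzymes. In mammals, loss of several of these factors disturbs the growth plate or the face, and in zebrafish hdac1 and kat6a are known from the development of the pharyngeal cartilages.

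The counts summed to between 18920027 and 25604897 per library, of which the gene listed as AC024175.4 held from 34.7% in library 6 to 59.0% in library 1. Counts were therefore scaled with the TMM method (trimmed mean of M-values), and a normalized count below is a count on this scale. A count of 0 allows up to 3 counts, which is between 2.84 and 3.30 normalized counts, and this limit covers counting error only. All 16 chondrocyte markers found in the table, among them col2a1a, col9a2 and matn1, reached 10 normalized counts in each library, and their sum was 990403, 1088540.0 and 1581430.0 in libraries 1, 3 and 6. Markers of other cells were also counted. The sum over 12 of 13 perichondrium and bone markers was 198964, 6513 and 12186, with sp7 at 0 in library 1, and the sum over 6 of 8 epidermis markers was 29096, 308 and 1033, with cldne at 0 in libraries 3 and 6 and cdh1 at 0 in library 3. Library 1 thus stood apart by collagen I and keratin RNA. Not all perichondrium and bone markers followed their sum, since dlx5a, runx2b and sp7 were highest in library 6. The sum over 10 of 12 nerve markers was 6051, 9876 and 14323, that over 11 of 14 muscle markers 6123, 2516 and 15115, that over 7 of 9 blood markers 35839, 5188 and 37699 and that over 14 of 16 cell division genes 9233, 5321 and 10674, each in libraries 1, 3 and 6, and no gene of these 4 lists was at 0 in any library.

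Most of the chromatin genes were counted in every library. A minimum of 10 normalized counts in each library was passed by 110 of the 130 genes (84.6%), against 67.8% of all genes of the table. The share of these genes past 50 normalized counts in every library was 76.2% (99 genes), against 46.4% of all genes. With a minimum of 5 it was 118 genes, against 74.5% of all genes. When 10 normalized counts were asked for in only 2 libraries, 122 genes passed (85.3% of all genes did), and when they were asked for in the mean, 125 genes passed (91.3% of all genes did). The median over the genes of the mean log2 (normalized count + 1) was 8.18, and over all genes it was 6.39. Of the 130 genes, 26 were among the upper 10% of all genes by mean normalized count. No correction for transcript length was possible, and longer transcripts give more reads at the same level, so neither the placing among all genes nor the order of counts between genes is an order of expression. The summed count of the 130 genes was 93052, 93699 and 80682 normalized counts in libraries 1, 3 and 6, so the highest library was 1.16 times the lowest. The order depended on the scaling. Under total-count scaling the sums were 82599.5, 87653 and 98805, with library 6 the highest. Under total counts less AC024175.4 the highest library was 1.33 times the lowest.

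**Figure D1:**
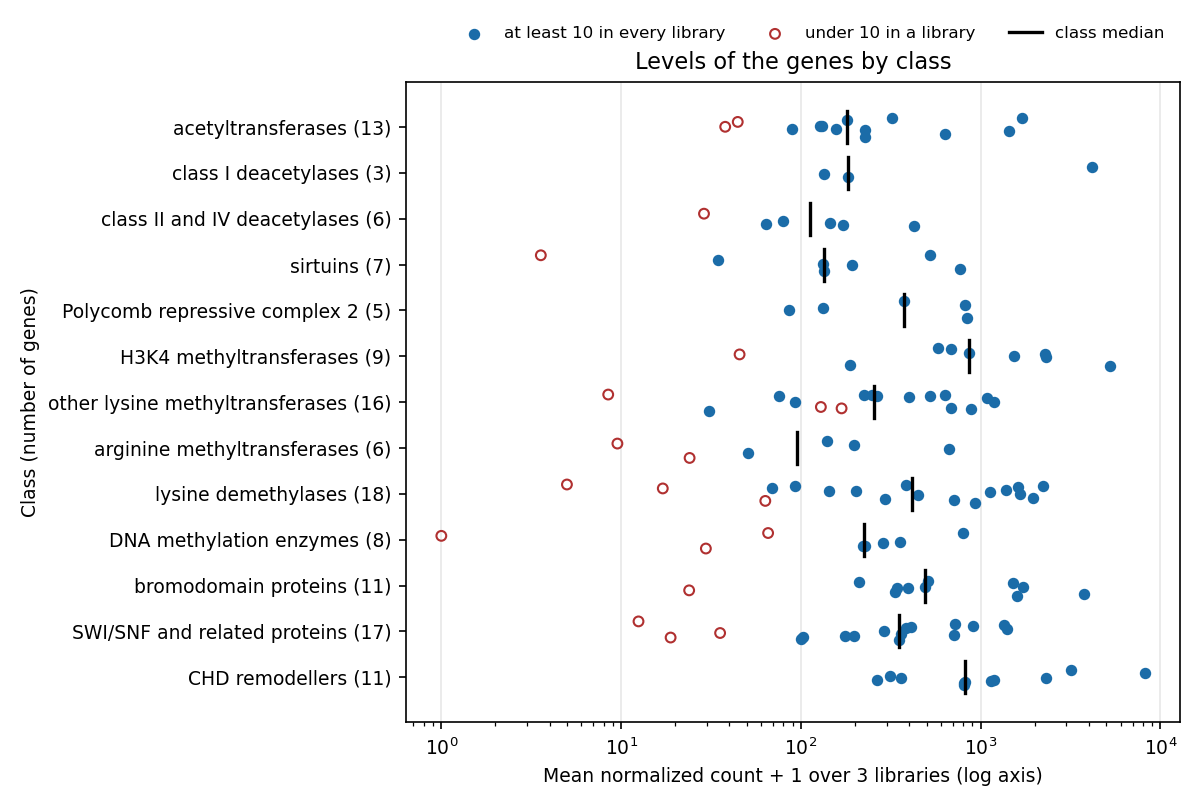
Mean normalized count plus 1 (log axis) of each of the 130 genes over 3 libraries, by class, with the number of genes in parentheses. Filled points are the 110 genes that reached 10 normalized counts in each library, open points the 20 genes that did not, and black bars the class medians; the lowest point is tet3, with 0 counts.

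The acetyltransferases that act as coactivators at enhancers, p300 and CBP, were present through both copies of each gene. The normalized counts were 1272, 2652 and 1194 for crebbpa and 679.5, 571 and 649.5 for crebbpb in libraries 1, 3 and 6. Those of ep300b were 1967, 1417 and 936, and those of ep300a 397, 366 and 197. No copy differed by more than 2.22 times between libraries, and crebbpb differed by 1.19 times. A further row, CREBBP (1 of 3), had 0, 92 and 10 reads, and without library 3 its mean fell to 4.73 normalized counts, against 36.9 with all libraries. Among the MYST acetyltransferases, kat6a, which in zebrafish maintains Hox expression in the pharyngeal arches, had 90.7, 182 and 106 normalized counts and kat6b 153, 283 and 245. For kat8, which acetylates histone H4, the values were 87.8, 295 and 294, with library 1 low. The row KAT5 (1 of 2), for the catalytic subunit of the Tip60 complex, had 157 ± 56.3 normalized counts (SD, n = 3). Of the 2 rows for Kat7, KAT7 (2 of 2) had 129.8 ± 57.2, whereas kat7 had 3, 24 and 107 reads in libraries 1, 3 and 6. The SAGA complex acetyltransferases were kat2b with 234, 124 and 181 and kat2a with 203, 19.8 and 43.6 normalized counts. Most kat2a reads came from library 1; without that library the mean was 31.7, against 88.7 with all 3.

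Among the deacetylases, hdac1 carried most of the reads. It encodes the catalytic subunit of the NuRD, Sin3 and CoREST corepressor complexes, and had 3349, 3978 and 5158 normalized counts in libraries 1, 3 and 6, the highest in library 6 at 1.54 times the lowest. The other class I genes were hdac3, the deacetylase of the NCoR complex, with 109, 210.4 and 227, and hdac8, which removes acetyl groups from the cohesin subunit Smc3, with 338, 23.1 and 40.7. Library 1 held most of the hdac8 reads, and its mean fell to 31.9 normalized counts without that library, against 134 with it. The sum of perichondrium and bone markers and that of epidermis markers were also highest in library 1, and their part in the values of hdac8 and kat2a, or of any other gene that was highest in library 1, was not tested. Of the class II and IV genes, hdac10, a polyamine deacetylase, had 589.8, 389.9 and 295 normalized counts. For the class IIa gene hdac5 the counts were 154, 215 and 141, and for hdac9b 73.4, 71.6 and 289.7 with the highest value in library 6, without which its mean fell to 72.5. The tubulin deacetylase gene hdac6 had 38.6, 120.1 and 31.2, highest in library 3, and HDAC11 (2 of 3) had 78.4 ± 29.8 (SD, n = 3). HDAC7 passed the minimum in libraries 3 and 6 but had 0 reads in library 1, against 21 and 64 reads in the other 2.

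Sirtuins are deacylases that need NAD+. The nuclear enzymes were sirt1 with 325, 152 and 98.5 and sirt6 with 140.0, 192 and 70.1 normalized counts in libraries 1, 3 and 6, both lowest in library 6. Sirt2, which is mainly cytoplasmic, had 378, 458 and 719.6. Of the mitochondrial enzymes, Sirt5 is a desuccinylase, and 2 rows carry its name. SIRT5 (2 of 2) had 875, 889 and 522 and sirt5 98.5, 193 and 103. The 3 libraries had 33.6 ± 6.33 normalized counts of sirt4 (SD, n = 3). Only 0, 1 and 7 reads were counted on sirt3, so its level could not be told from 0 at this depth in libraries 1 and 3.

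The bromodomain genes included those of the BET family, whose proteins bind acetylated histones. Among them brd2a had 1532, 1801 and 1467 normalized counts, brd3a 1919, 1871 and 1337 and brd3b 4541, 3612 and 3047 in libraries 1, 3 and 6. For each of these genes the libraries lay within 1.49 times of each other. The second copy brd2b had 10, 33 and 24 reads and fell below the minimum in library 1. Genes of the SWI/SNF subunits brd9 and brd7 had 492 ± 221 and 395 ± 66.1 normalized counts (SD, n = 3). Those of brd1a, brd1b and brd8 were 334 ± 113, 343 ± 140.0 and 511 ± 147. The row BRD8 (2 of 2) was more uneven, with 356, 59.5 and 210.2, and its mean fell to 135 without library 1, against 209 with it. Of the 10 bromodomain genes past the minimum, 8 were highest in library 1, against 35.9% of all genes past it, but this count was 6 of 10 under upper-quartile scaling and 5 of 10 under total-count scaling.

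All 5 genes of Polycomb repressive complex 2, which methylates lysine 27 of histone H3, passed the minimum, against 67.8% of all genes. The catalytic subunit ezh2 had 449, 1219 and 849 normalized counts in libraries 1, 3 and 6, and the alternative subunit ezh1 67.6, 67.2 and 121. For eed, which binds the finished mark, the values were 114, 549 and 461. The remaining core subunit had 657, 1328 and 463 from suz12b and 62.7, 139.9 and 192 from suz12a. Library 1 was lowest for ezh2, eed and suz12a, library 6 for suz12b, and libraries 1 and 3 were nearly equal for ezh1. The summed counts of the complex were 1350.4, 3303 and 2087, so library 3 had 2.45 times as many as library 1, and library 1 was the lowest under each of the other 6 scalings too. The summed nerve markers and the summed chondrocyte markers were also lowest in library 1, but single markers differed. Of the chondrocyte markers, col11a1a, col11a2, hapln1a and matn4 were lowest in library 3 and sox5 and ucmab in library 6. Of the nerve markers, atp1a3a, mbpa and snap25b were lowest in library 3. The part of nerve and chondrocyte RNA in the values of the complex was not tested.

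The Kdm6 demethylases of the same mark were counted through 4 rows. The normalized counts were 2124, 2725 and 1808 for kdm6bb, 1679.5, 1946 and 1223 for KDM6B (2 of 2) and 1225, 1572 and 1338 for kdm6a in libraries 1, 3 and 6. All of these were highest in library 3, by at most 1.59 times over the lowest library. The related kdm6al had 514, 458 and 183. Per library, the log2 ratio of the summed kdm6 counts to the summed ezh counts was 3.42, 2.38 and 2.23, and that of ezh2 to ezh1 was 2.73, 4.18 and 2.81. Transcript length cancels when the ratio of a pair of single genes is compared between libraries, and that of ezh2 to ezh1 differed by 2.73 times. It does not cancel for sums over several genes, so the kdm6 to ezh ratio, which differed by 2.29 times, describes reads only.

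**Figure D2:**
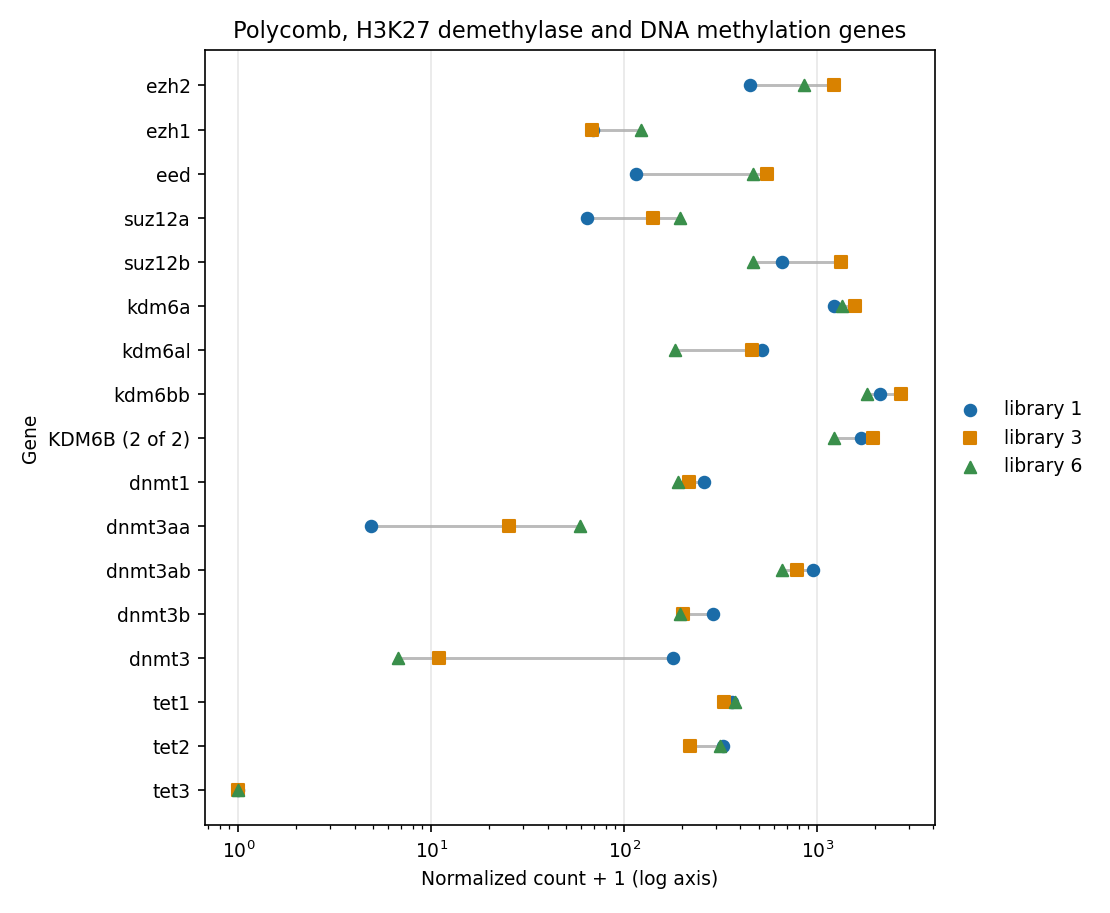
Normalized count plus 1 (log axis) of the Polycomb repressive complex 2, kdm6 and DNA methylation genes in libraries 1, 3 and 6. Each point is a library and each grey line the range. The 3 libraries lie close together for kdm6a, dnmt1, dnmt3ab and tet1, and apart for eed, dnmt3 and dnmt3aa; tet3 is at 0 in each.

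Writers of the lysine 4 mark of histone H3 were widely counted. The genes kmt2a and kmt2bb, of the MLL1 and MLL2 branch, had 1929, 2711 and 2182 and 5905, 6632 and 3203 normalized counts, and kmt2ba had 438, 482 and 803. Of the enhancer methyltransferases of the MLL3 and MLL4 branch, kmt2ca had 2227, 1522 and 842, kmt2cb 1766, 2692 and 2447 and kmt2d 199.8, 312 and 51.1 in libraries 1, 3 and 6. The highest library was 6.1 times the lowest for kmt2d, 2.65 times for kmt2ca and 1.52 times for kmt2cb. KMT2D is the gene most often mutated in Kabuki syndrome in humans, which includes skeletal and facial features, and the zebrafish kmt2d was lowest in library 6. The setd1a gene had 868, 688 and 494 normalized counts and kmt2e, whose product is not known to be an active methyltransferase, 375, 1125 and 1069. With 108, 26 and 1 reads in libraries 1, 3 and 6, setd1ba was the only gene of the 9 below the minimum, and its mean fell to 14.8 normalized counts without library 1. The minimum was passed by 88.9% of this class, against 67.8% of all genes.

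The lysine demethylases numbered 18, and 15 passed the minimum (83.3%), against 67.8% of all genes. For kdm1a, the LSD1 subunit of the CoREST complex, the normalized counts were 1461, 2161 and 2252. Those of kdm4b, which removes the lysine 9 mark, were 1516, 1696 and 1781, within 1.17 times of each other, and KDM4C had 92.3 ± 7.66 (SD, n = 3). The lysine 4 demethylases kdm5bb, kdm5c and kdm5ba had 1133 ± 389.9, 935 ± 165 and 445 ± 193 normalized counts (SD, n = 3). Members of the Kdm2 group, which act on lysine 36, were kdm2aa with 490.3, 475 and 1174, highest in library 6, kdm2ba with 202 ± 91.7 and kdm2bb with 67.7 ± 33.4. The Kdm7 copies went different ways across libraries, with 104, 307 and 463 for kdm7ab and 167, 96.9 and 161 for kdm7aa. Of the 3 genes below the minimum, kdm4ab had 0, 84 and 100 reads in libraries 1, 3 and 6, KDM4A (1 of 2) had 9, 3 and 0 and kdm8 had 29, 8 and 12. The 2 rows for Kdm4a were thus read in opposite libraries, at 9 reads or fewer in KDM4A (1 of 2).

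Among the other lysine methyltransferases, the lysine 9 writers ehmt1b and setdb1a had 1393, 1074 and 1111 and 869, 453 and 573 normalized counts. Their relatives ehmt1a, setdb1b and ehmt2 had 223, 177 and 272, 208, 167 and 366 and 44.4, 11.02 and 219.7, and ehmt2 fell to a mean of 27.7 without library 6, against 91.7 with it. The product of ehmt2, G9a, works as a dimer with that of ehmt1. SETDB2 had 2, 4 and 17 reads in libraries 1, 3 and 6. For dot1l, the methyltransferase of lysine 79, which in mice protects articular cartilage, there were 4, 172 and 202 reads. Libraries 3 and 6 were alike for dot1l and library 1 was near 0; without library 1 its mean was 190.4 normalized counts, against 128 with it. The gene setd2, whose product trimethylates lysine 36, had 182, 371 and 638, lowest in library 1. The lysine 20 monomethyltransferase of histone H4 has a pair of copies, setd8a with 641, 507 and 418 and setd8b with 463, 1.1 and 37.9. Library 1 held nearly all setd8b reads, and the mean fell to 19.5 normalized counts without it, against 167 with it; the part of the collagen I and keratin RNA of library 1 in this was not tested. Further SET domain genes were setd5 with 1083 ± 231, setd7 with 682 ± 228, setd6 with 264 ± 121, SETD9 with 29.7 ± 13.2 and setd3, which in mammals methylates a histidine of actin, with 882 ± 339 (SD, n = 3 each). The setd4 gene was high in library 3, with 16.4, 186 and 21.8, and had a mean of 19.1 without it.

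Of 6 arginine methyltransferase genes, 4 passed the minimum (66.7%), near the share of all genes (67.8%). The main asymmetric enzyme gene prmt1 had 378, 645 and 983 normalized counts in libraries 1, 3 and 6, and prmt5, which makes the symmetric mark, 213, 130.0 and 247. Values for prmt7 were 69.5, 188 and 158 and for prmt2 26.1, 33.05 and 89.95. Library 6 was highest for prmt1, prmt5 and prmt2, and library 3 for prmt7. The reads of prmt3 and prmt6 were few, 8, 42 and 16 for prmt3 and 12, 5 and 9 for prmt6. Without library 6 the mean of prmt2 was 29.6 normalized counts, against 49.7 with it, and without library 3 that of prmt3 was 11.4, against 23.04.

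Of 8 DNA methylation genes, 5 passed the minimum (62.5%), against 67.8% of all genes. They fell into even and uneven ones. The maintenance methyltransferase gene dnmt1 had 257, 215 and 188 normalized counts in libraries 1, 3 and 6, within 1.36 times of each other. The de novo gene dnmt3ab had 953, 784 and 655 and dnmt3b 288, 199 and 192. Tet1 and tet2, whose products oxidize 5-methylcytosine, had 362, 326 and 373 and 324, 219 and 311. The summed cell division genes were lowest in library 3 and highest in library 6, whereas dnmt1 was highest in library 1 and lowest in library 6. Single genes of that list differed. Those highest in library 6 were ccnb1, mcm3, mcm4, mcm7, pcna, rrm1 and rrm2. Those highest in library 1 were aurkb, cdc20, cdk1, mcm5, mcm6, mki67 and top2a. The part of cell division in the dnmt1 values was not tested. The gene listed as dnmt3, now dnmt3bb.2, had 185, 9 and 6 reads, and its mean fell to 7.8 normalized counts without library 1, against 64.7 with it. The opposite held for dnmt3aa, with 4, 22 and 61 reads, which was lowest in library 1. On tet3 there were 0 reads in every library, which allows up to 2.90, 3.30 and 2.84 normalized counts in libraries 1, 3 and 6, and it was the only one of the 130 genes with no read. The log2 ratio of summed tet to summed dnmt counts was -1.29, -1.18 and -0.69 in libraries 1, 3 and 6.

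The SWI/SNF complex moves nucleosomes by the ATPases Brg1 and Brm. The Brg1 gene smarca4, now smarca4a, had 1320.4, 1337 and 1381 normalized counts in libraries 1, 3 and 6, which lay within 1.05 times of each other, the smallest ratio among the genes with reads in every library. This depended on the scaling, and the ratio was 1.44 under total-count scaling and 1.19 under upper-quartile scaling, where other genes had smaller ones. The Brm gene smarca2 had 1918, 1044 and 1227, highest in library 1. The log2 ratio of smarca4 to smarca2 was -0.54, 0.36 and 0.17, below 0 in library 1 and above 0 in libraries 3 and 6. Core subunits were smarcc2 with 682, 850.4 and 1172, smarce1 with 328, 236 and 584, smarcb1b with 289.6, 115 and 119 and smarcb1a with 100.4, 69.4 and 137. The copies smarcc1a and smarcc1b were read in different libraries, with 474, 183 and 395 and 94.6, 399 and 99.4, and smarcc1b had a mean of 97.01 without library 3, against 198 with it. Accessory subunits were smarcd1 with 407 ± 92.5, smarcd2 with 99.8 ± 48.4, smarcd3a with 672, 254 and 151 and smarcd3b with 74.3, 19.8 and 9.47. Both smarcd3 copies were highest in library 1, and without it their means fell to 203 and 14.6 normalized counts, against 359 and 34.5 with it. The sum of perichondrium and bone markers and that of epidermis markers were also highest there, though dlx5a, runx2b and sp7 were not. The part of these RNAs was not tested. The ISWI ATPase genes, of another remodelling family, were smarca5 with 975, 484 and 673 and smarca1 with 779, 762 and 615. Of the 3 DNA repair relatives, smarcad1 had 288 ± 134 normalized counts (SD, n = 3), while SMARCAD1 (2 of 2) and smarcal1, whose human counterpart is mutated in Schimke immuno-osseous dysplasia, had 22, 7 and 26 and 23, 6 and 6 reads and did not pass.

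All 11 CHD genes passed the minimum, against 67.8% of all genes. The NuRD subunit genes chd3, chd4b and chd4a had 8533, 10003 and 5952, 2695, 1842 and 2357 and 1214, 1402 and 941 normalized counts in libraries 1, 3 and 6. The gene chd2 had 5037, 2630.4 and 1889.9, highest in library 1. For chd7, mutated in CHARGE syndrome in humans, in which craniofacial development is disturbed, the values were 931, 662 and 835, within 1.41 times of each other. CHD6 had 809 ± 43.3, chd9 1144 ± 96.6, CHD1 358 ± 37.1 and chd8 818 ± 351 (SD, n = 3 each). Values for chd5, known in mammals mainly from the nervous system, were 90.7, 240.1 and 458, and its mean fell to 165 without library 6, against 263 with it. The summed nerve markers had the same order of libraries, as had elavl3, elavl4, nefma, stmn1b and tubb5 among them. The others did not, with snap25a and syt1a highest in library 3 and mbpa, snap25b and atp1a3a lowest in library 3. The part of nerve RNA in chd5 was not tested. For chd1l, a remodeller of the DNA damage response, the values were 259.6, 564 and 117, with a mean of 189 without library 3.

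Partners of these enzymes that the symbols above do not cover were counted from a separate list of 116 names, of which 96 were matched to a row. The same minimum was passed by 78 of the 96 (81.2%), against 67.8% of all genes, and their median mean log2 (normalized count + 1) was 7.52, against 6.39 over all genes. The corepressor scaffold gene ncor1 was among them, with 1332, 1748 and 1433 normalized counts. Of the genes of Polycomb repressive complex 1, which binds the lysine 27 mark, rnf2 had 520.3, 127 and 336 and cbx7a 819, 1377 and 854, while bmi1a had 3, 161 and 560 reads and bmi1b 283, 203 and 347 normalized counts. The Polycomb repressive complex 2 accessory genes mtf2 and phf19 had 12.5, 211 and 370.2 and 5.79, 49.6 and 83.3 in libraries 1, 3 and 6. Both were lowest in library 1, as ezh2, eed and suz12a were, but the accessory genes jarid2b, jarid2a and aebp2 were not. The gene jarid2b had 349, 189 and 151 and was highest in library 1, jarid2a had 15, 13 and 2 reads, and aebp2 had 71.4, 37.5 and 164 normalized counts and was lowest in library 3. The complex 2 histone-binding subunit rbbp4, listed as rbb4, had 361, 608 and 674. The H3K4 methyltransferase partners wdr5 and dpy30 had 399, 378 and 601 and 419.9, 596 and 365, while ash2l had 31, 0 and 9 reads and men1 24, 0 and 4.

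Differences between libraries were described over all genes past the minimum. The highest library was at least 3 times the lowest for 22 of the 110 genes (20%), against 40% of all genes past the minimum. The median SD of log2 (normalized count + 1) was 0.50 over the 110 genes and 0.69 over all. Spread depends on the number of reads, so the genes were also split by mean normalized count. With a mean from 10 to under 100, 7 of 12 of the chromatin genes (58.3%) differed by at least 3 times, against 53.1% of all genes. From 100 to under 1000 the share was 20.8% (15 of 72) for the chromatin genes and 40.9% for all genes, and at 1000 and over it was 0 of 26 for the chromatin genes and 12.2% for all genes. These shares are descriptions, since genes share their libraries and are not replicates. Library 1 was highest for 44 of the 110 genes (40%, against 35.9% of all genes), library 3 for 33 (30%, against 33.1%) and library 6 for 33 (30%, against 31%). Under total-count scaling these counts were 26, 25 and 60 of 111 genes, so the order of libraries over the whole set depended on the scaling.

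**Figure D3:**
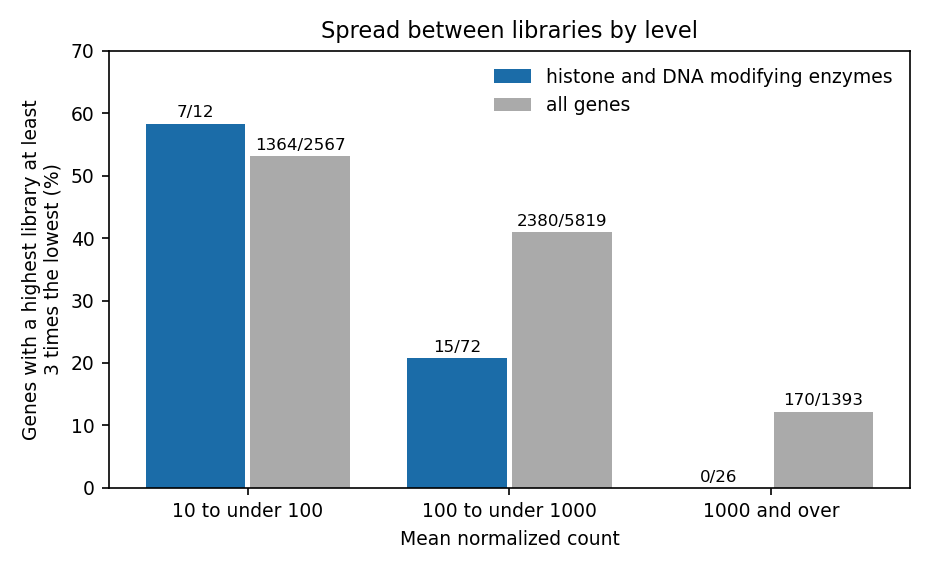
Share of genes whose highest library was at least 3 times the lowest, among genes past 10 normalized counts in each library, for 3 ranges of the mean normalized count. Blue bars are the 110 histone and DNA modifying enzymes and grey bars all 9779 genes, with the numbers of genes above the bars; in the highest range the shares are 0 of 26 enzymes and 170 of 1393 genes.

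The 8 genes with the largest ratios between libraries, taking genes whose mean reached 10 normalized counts, were setd8b, setd1ba, dot1l, kat7, dnmt3, CREBBP (1 of 3), HDAC7 and kdm4ab, and none of them passed the minimum in all libraries. The highest library exceeded the lowest 421 times for setd8b and 110.1 times for setd1ba, but the lowest rested on 1 read in each, and exact 95% counting intervals ran from 75.1 to 16648 for setd8b and from 19.3 to 4388 for setd1ba. For dot1l this factor was 49.5, for kat7, on 3 reads, 34.99 (interval 11.7 to 172) and for dnmt3 31.4. The lowest library had 4 reads on dot1l and 6 on dnmt3, for which no interval was computed. The intervals cover counting error only, amplified reads are not independent molecules, and the genes were picked for large ratios. Where library 1 had 0 reads, 3 counts were taken as its floor. The highest library was 35 times this floor for CREBBP (1 of 3), 32.7 times for kdm4ab and 20.9 times for HDAC7. These factors leave out the counting error of the highest library. Library 1 was the highest for dnmt3, setd1ba and setd8b and the lowest for the other 5. It also had the highest sums of perichondrium and bone markers and of epidermis markers, whose part was not tested. Leaving out 1 library moved the mean of 27 of the 130 genes (20.8%) by over 1.5 times, against 43.9% of all genes.

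**Figure D4:**
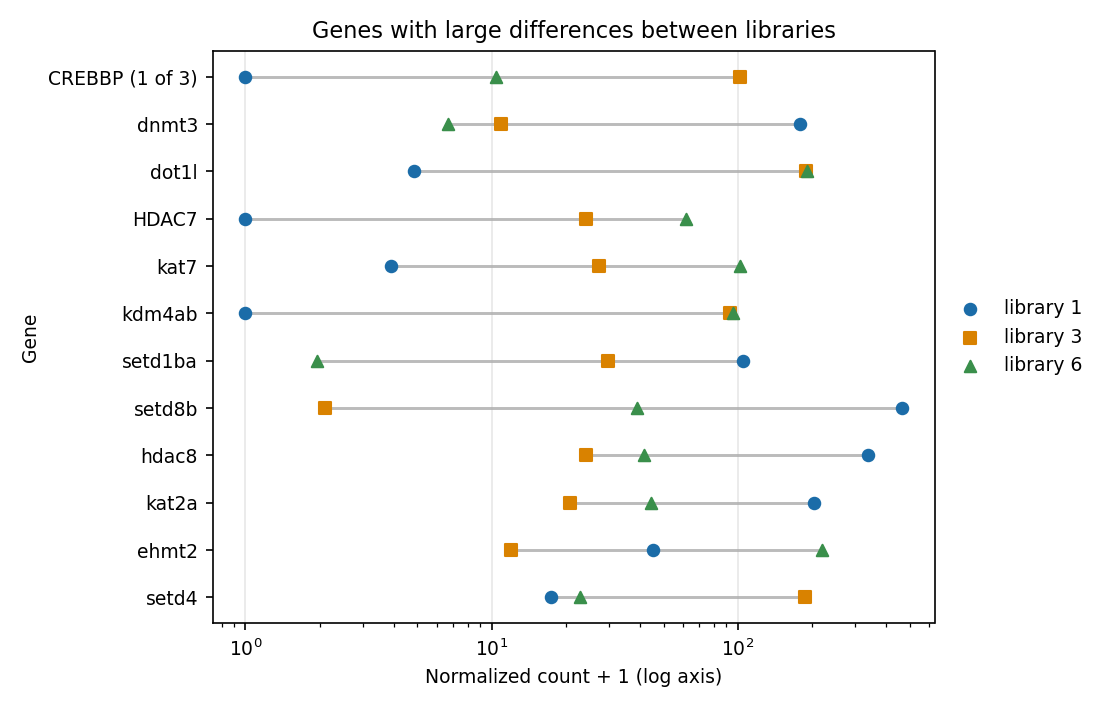
Normalized count plus 1 (log axis) in libraries 1, 3 and 6 of the 8 genes with the largest ratios between libraries and, below them, hdac8, kat2a, ehmt2 and setd4, added after their values were seen. Library 1 is at one end of the range for most, low for dot1l, HDAC7, kat7 and kdm4ab and high for dnmt3, setd8b and hdac8.

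Zebrafish carry many of these genes as a pair of copies, and 26 pairs were matched by name. Some pairs hold a row such as KDM6B (2 of 2) or SIRT5 (2 of 2). Which current gene such a row stands for was not settled, so these pairs are copies by name only. The counting could have split reads between near-identical copies, so the share of a pair's reads on 1 copy is uncertain beyond its counting error. In 20 of the 26 pairs the same copy had more reads in every library. Copy lengths were not corrected for, and any genes of unlike length or level would also keep their order. No share over other pairs of genes was computed, so this count is a description only. Of the reads on brd2a and brd2b, 99.4, 98.02 and 98.5% fell on brd2a in libraries 1, 3 and 6. For ep300a the share of the ep300 reads was 16.8, 20.5 and 17.4%, and for dnmt3aa the share of the dnmt3a reads was 0.404, 3.0 and 8.1%. Pairs with similar shares in all libraries included kdm5ba with 27.97, 29.6 and 25.6% of the kdm5b reads and kdm6bb with 55.8, 58.3 and 59.7% of the kdm6b reads. In 6 pairs the copy with more reads changed between libraries: brd1a and brd1b, kdm4ab and KDM4A (1 of 2), kdm7aa and kdm7ab, kmt2ca and kmt2cb, smarcb1a and smarcb1b, and smarcc1a and smarcc1b. The change of kdm4ab and KDM4A (1 of 2) rests on 9 reads in library 1, and the smarcb1a share in library 6, 53.5%, had an interval of 47.6 to 59.4% that spans 50%. The kmt2ca share had 95% Wilson intervals of 54.2 to 57.3% around 55.8% in library 1, 34.6 to 37.7% around 36.1% in library 3 and 24.2 to 27.1% around 25.6% in library 6. For smarcc1a, library 1 gave 83.4% (80.1 to 86.2%), library 3 gave 31.4% (27.6 to 35.5%) and library 6 gave 79.9% (76.2 to 83.1%). These intervals do not overlap between library 3 and the others. They cover counting error only, and amplified reads are not independent molecules.

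**Figure D5:**
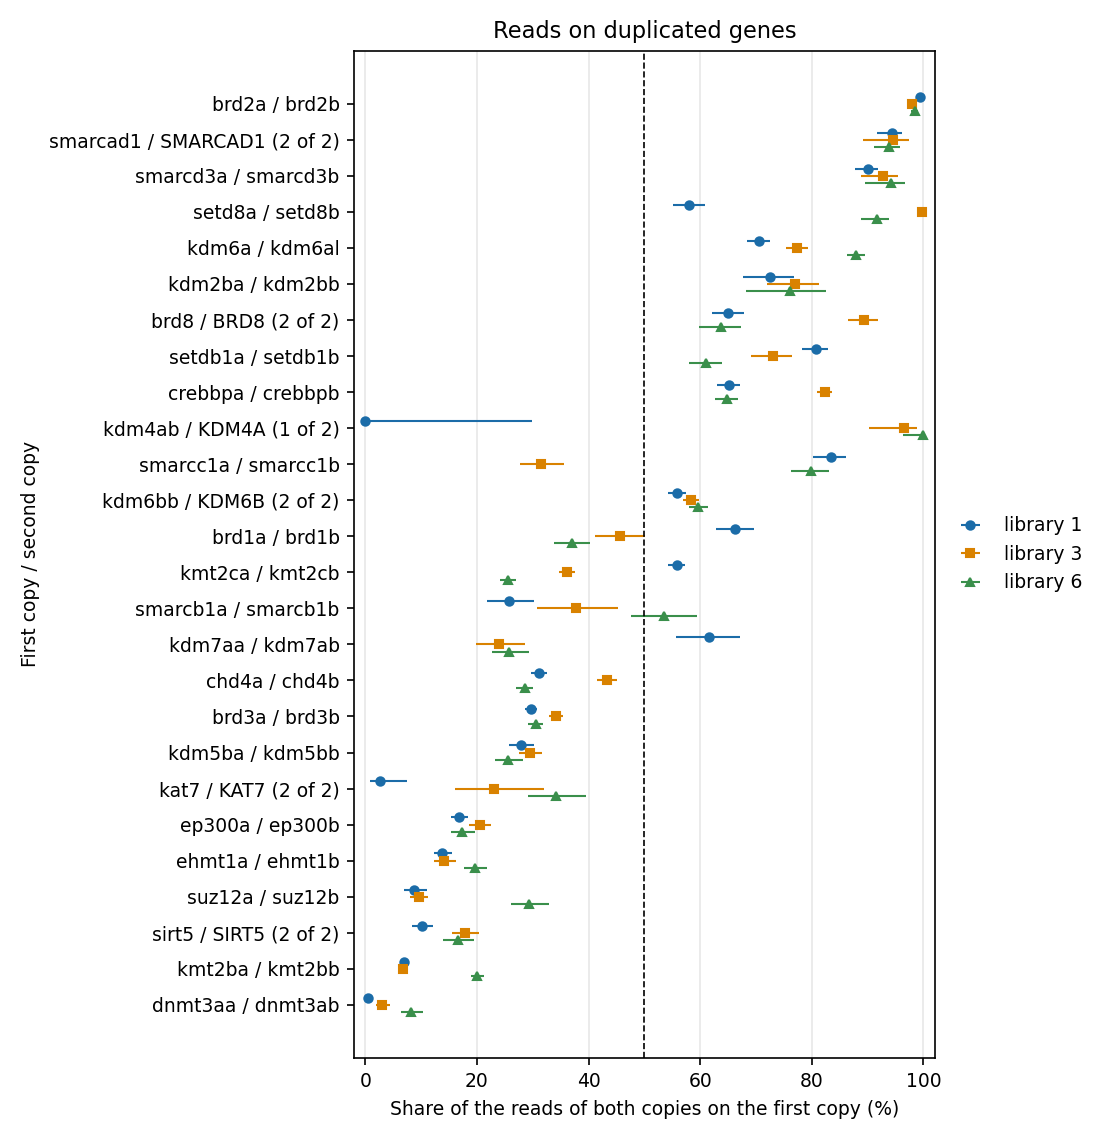
Percent of the reads of both copies that fell on the first one named, for 26 pairs matched by name in libraries 1, 3 and 6. Bars are 95% Wilson confidence intervals that cover counting error only. The dashed line marks 50%; the points of 20 pairs lie on 1 side of it, and those of 6 pairs on both sides.

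Groups of genes, most of them named for enzymes with opposite actions, were set side by side within each library. Of 8 log2 ratios of summed normalized counts, 7 had the same sign in every library, the exception being smarca4 over smarca2. Length was not corrected for, so a sign says which side had more reads and not which was more expressed. Most sums also held unlike numbers of genes on their sides, which moves the sign and size. These were 13 over 16 for acetyltransferases, 3 over 6 for class I deacetylases and 4 over 2 for kdm6. For kmt2 and setd1 they were 9 over 4, for setdb and ehmt 6 over 4 and for tet 3 over 5. The log2 ratio of acetyltransferases to deacetylases and sirtuins was -0.31, -0.14 and -0.89 in libraries 1, 3 and 6, a mean of -0.45 that turned to 0.26 without the gene with the most counts on each side, crebbpa and hdac1. Its lower side includes hdac6, hdac10 and both Sirt5 rows, described above by other substrates or activities. The sign of this ratio therefore holds for these symbols only and is not a balance of histone acetylation. For class I over class II and IV deacetylases the log2 ratio was 2.01, 2.28 and 2.56, with a mean of 2.28. Without the top gene on each side, hdac1 and hdac10, the mean turned to -0.63. That mean does not give the sign in each library. Of the class I genes then left, hdac8 had 338 normalized counts in library 1, against 23.1 and 40.7 in libraries 3 and 6. The kmt2 and setd1 genes over kdm1 and kdm5 genes gave 1.77, 1.64 and 1.41, the steadiest of the 8 ratios, with an SD of 0.18 between libraries. The kmt2 side includes kmt2e, whose product is not known to be an active methyltransferase. For setdb and ehmt genes over kdm4 genes, which act on lysine 9, the ratio was 0.75, 0.01 and 0.38. The value in library 3 is near 0. Not all lysine 9 genes are in these sums, so the sign holds for these symbols only. Among those left out were suv39h1b, with 157, 59.5 and 87.1 normalized counts, and the Kdm3 relative jmjd1cb, with 845, 1050 and 729.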

How the data were processed

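The authors made amplified-RNA libraries (TruSeq RNA v2) from laser-captured cartilage, and deposited, for 3 libraries, raw whole-number read counts for each gene symbol. The submitters' processing notes name Trimmomatic 0.36, edgeR and the build Zv9; the aligner, counter and annotation are not given in the sources used here. Counts were not stated to use strand, so overlapping genes may share reads.

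Genes were selected by symbol; some genes that match the symbols or lists are not reported by name here, and those among the 130 enter the counts, sums and medians only. The genes and lists were chosen with earlier results of these data known. Of the 130 symbols, 119 matched a RefSeq name or synonym (GRCz12tu), used for names only. Counts were scaled by TMM in edgeR 4.0.16 (R 4.3.3), on all genes, to the mean effective library size; other steps used Python 3.11.15, numpy 2.4.6, pandas 2.3.3 and scipy 1.17.1. With 1 condition no differential expression was tested. The planned ratios per kb of coding length were given without length, since no transcript length was at hand; the planned exact sign-flip permutation test is not reported, since with 3 libraries its p is fixed once the signs are alike and a ratio of 0 has no meaning without lengths. Scaling was also run on simulated data with 1 expected profile for all libraries, apart from depth and some genes changed in 1 library. The uneven share of AC024175.4 was not built into them, so they do not show how the scaling deals with it. Intervals of shares are Wilson intervals (95%), and those of ratios on 1 to 3 reads exact binomial ones.

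The genes to be named were those of known role on a fixed list, the 2 with the most counts in each of 13 classes, the 8 with the largest ratio between libraries among means of at least 10, and the 10 lowest of those below the minimum, 73 in all; the planned 10 highest per kb were not determined. The remaining genes, the partner genes, and the 26 pairs were named with their values known. Alternatives were scaling by total counts, by the upper quartile, by DESeq2 1.42.0 size factors and by TMM on filtered genes, raw counts, other minimums and pseudocounts, and leaving out each library, keeping the normalized counts of the others. Scaling by total counts less AC024175.4 was chosen after seeing the data.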

Additional observations from a re-analysis of the deposited data

How the results depend on the processing

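No paired analysis was possible because there is no second group to pair with. The number of genes past the minimum, 110 of 130, was between 110 and 112 under the 6 other scalings, between 99 and 125 under other minimums, and 112 to 117 when a library was left out. For the partner genes, 78 of 96, it was between 77 and 79, between 63 and 95, and from 80 to 84 in the same order. Leaving out a library could only keep or raise these counts, since the minimum was then asked of fewer libraries. The median level, 8.18 on the log2 scale, was 8.47 over genes whose counts reached 10 in each library, where the lowest genes are absent, and from 8.05 to 8.20 when a library was left out. The median SD between libraries, 0.57 over all 130 genes, was 0.51 over the same filtered genes and from 0.44 to 0.52 when a library was left out, which leaves 2 values per gene.

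Without the gene with the most counts on each side, the mean log2 ratio of acetyltransferases to deacetylases was 0.26, against -0.45 with all genes, and that of class I to class II and IV deacetylases -0.63, against 2.28; both turn on hdac1. In the same way kdm6 over ezh was 5.35, against 2.68, as only ezh1 is left below, and setdb and ehmt over kdm4 was 2.92, against 0.38. The ratio of smarca4 to smarca2, near 0, changed sign to 0.26 without library 1 and was -0.18 without library 3. Ratios per kb were not run.

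Total-count scaling moved library 6 by 0.29 and library 1 by -0.17 on the log2 scale relative to TMM. Of 438 means of the 73 genes under other scalings, 0 shifted beyond the SD over the libraries. With 1 library left out, the means of 16 of the 73 moved by over 1.5 times. The 73 include genes picked for the largest ratios between libraries and the lowest genes below the minimum. The count of 16 therefore follows in part from that choice. Among all 130 genes such a move was seen for 27 (20.8%), against 43.9% of all genes of the table. The 0 was nearly fixed beforehand, since each scaling is centred over the libraries and the SD over 3 libraries is wide. It does not cover the order of libraries. Libraries 1, 3 and 6 were highest for 26, 25 and 60 genes under total-count scaling, against 44, 33 and 33 under TMM. Depth limits sirt3, tet3, SETDB2, prmt6 and KDM4A (1 of 2), which rest on under 20 reads in every library.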
